A study of Homo sapiens with 3 samples.

Results

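The serpins are a protein family named for serine protease inhibitors, and the plasminogen activators are proteases that several of them restrain. The genes described here are those whose PrimeView probe sets name exactly 1 gene with a symbol of the SERPIN series (clades A to I), together with PLAU, PLAUR and PLAT. The platform annotation gave 34 such genes, 31 serpins and 3 of the activator system, among 18132 genes named in all, and they had 78 of the array's 49395 probe sets. Genes of the family that the rule did not find were not analysed here.

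All 3 arrays came from FaDu, an established squamous carcinoma line of the human hypopharynx grown in medium with 10% fetal calf serum. The treated culture received NSC-631570, an extract of greater celandine (Chelidonium majus), at 10 µg/ml for 48 h, which the submitters call its EC50 dose. Untreated cells, given distilled water in place of the extract, gave 2 arrays, and the treated condition gave 1. All results therefore concern 1 cell line, 1 dose and 1 time. The labels do not tell whether separate cultures gave the untreated arrays. If they did not, p-values reflect technical variation only. In bulk RNA, fewer cells of a kind and less RNA per cell cannot be told apart.

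A serpin that acts as an inhibitor offers a reactive loop as bait, is cut by the protease and traps it in a covalent complex. Clade A holds mostly secreted proteins of the blood, clade B mostly intracellular proteins that are prominent in squamous epithelium, and some serpins, such as the collagen chaperone SERPINH1 or maspin (SERPINB5), inhibit no protease. In the activator system the secreted protease urokinase (PLAU) binds its receptor (PLAUR) at the cell surface and converts plasminogen into plasmin, tissue plasminogen activator (PLAT) does the same on fibrin, and inhibitory serpins of clades E, F and I limit these steps.

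No gene of the set passed the test between treated and untreated arrays. The urokinase receptor gene PLAUR (1.64-fold) and SERPINF1 (1.79-fold), which encodes the pigment epithelium-derived factor, were higher in the treated array on every probe set they have. Of all genes with at least 3 probe sets past a filter on low signal, 11.8% were above both untreated arrays on every one. SERPINB1, which encodes an inhibitor of neutrophil elastase, was 1.67-fold higher on its only probe set. The probe sets of the protease gene PLAU differed widely. The brightest placed the treated array between the untreated ones, 1.04-fold above their mean. On the others it was 2.22- and 4.42-fold below that mean. SERPINE2 and SERPINA1 differed more between the untreated arrays than the treated array differed from their mean.

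Of the 34 genes, 19 had a brightest probe set whose mean over the arrays passed the filter on low signal (log2 5.85, the 40th percentile of all probe sets), and 15 did not. Limma with Benjamini-Hochberg adjustment over 11932 genes called 0 of the 19 (lowest adjusted p = 0.156), where it called 0.067% of all tested genes. At an unadjusted p under 0.05 limma counted 3, all higher (SERPINF1, PLAUR and SERPINB1), against 12.2% of tested genes higher and 2.24% lower. The treated array lay above both untreated arrays for 11 of the 19 genes (57.9%), below both for SERPINA3 alone, and between them for 7. Over all tested genes these shares were 51.6% above both and 22.5% below both, so the share above lies near the background. The median log2 difference of the 19 was 0.24, beside 0.12 over all tested genes. With the arrays brought to a common median over the tested genes the numbers above and below both became 6 and 4. No share over all tested genes was counted at that scaling, so these numbers have no background here. The median of the 19 became 0.04, beside −0.08 over all tested genes. Only SERPINF1 stood at least 1.5-fold beyond the nearer untreated array, as did 5.84% of all tested genes above and 1.23% below.

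With each probe set fitted on its own, 49 of the 78 passed the filter and limma called 0 of them (lowest adjusted p = 0.061), where 2.93% of 27249 probe sets were called. At an unadjusted p under 0.05 limma counted 10 higher and 4 lower, against 8.31% and 9.55% of all. Probe sets of 1 gene are not independent: of the 10, SERPINF1 gave 4 and the activator system genes PLAUR and PLAT together 4. These counts therefore do not count genes. The treated array lay above both untreated arrays on 26 (53.1%), below both on 9 (18.4%) and between them on 14. The 49, the 10 and the 26 include the SERPINF1 probe set 11756312_a_at, which passed the filter only through its treated value. Over all probe sets past the filter 40.7% lay above both and 34.5% below both, and after centring on the tested genes 21.4% and 56.2%, so the position of single probe sets depends on the scaling. Of the array's control probe sets, the 5′ ones read ACTB 2.59-fold and GAPDH 1.39-fold lower after treatment, while the 3′ ones differed by 0.20 and −0.01 on the log2 scale. Where on its transcript each probe set lies is not used here, and whether this 5′ signal has a part in the lower readings below was not tested.

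Urokinase, the protease of the system, was read by 3 probe sets. On the brightest, 11717886_a_at, PLAU had untreated log2 signals of 12.12 and 12.95 and a treated signal of 12.59. The treated array thus lay between the untreated ones (log2 difference 0.06 ± 0.33, limma's SE for n = 2 untreated and 1 treated, adjusted p = 0.966). On 11717154_a_at the untreated signals were 10.77 and 11.90 and the treated signal was 10.18, and on 11754119_a_at they were 9.38, 10.75 and 7.92. On both of these the treated array was below either untreated array, by 0.59 and 1.46 from the nearer one. Fitted by probe set, the differences were −1.15 ± 0.41 (adjusted p = 0.199) and −2.14 ± 0.48 (adjusted p = 0.061), and neither passed. The last was at least 2-fold below both untreated arrays, as were 2.57% of all probe sets past the filter. The differences of the 3 probe sets spanned 2.20, beside a median span of 0.56 over 4024 genes with at least 3 probe sets past the filter, of which 99% had a span no wider. All 3 probe sets also read untreated 2 higher than untreated 1, by 1.78- to 2.58-fold. The mean of the probe sets differed by −1.08 (limma adjusted p = 0.327).

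PLAUR, which tethers urokinase to the membrane, was read higher in the treated array by all 5 of its probe sets. On the brightest, 11738053_x_at, the untreated signals were 8.0 and 8.34 and the treated signal was 8.88, a log2 difference of 0.71 ± 0.24 (adjusted p = 0.237). The widest separation was on 11742819_at, with 7.24 and 7.16 untreated and 8.0 treated. The groups did not overlap on any of the 5, whose differences ran from 0.39 to 0.81, although on 11742818_a_at the treated value of 7.37 barely exceeded untreated 2 at 7.28. Centred on the tested genes, 4 of the 5 remained above both untreated arrays, where 21.4% of all probe sets past the filter lay above both. Of the 4024 genes with at least 3 probe sets past the filter, 11.8% had the treated array above both untreated arrays on every one. Among the 9 genes of the set with that many, PLAUR and SERPINF1 did. Against untreated 1 and untreated 2 singly the brightest probe set differed by 0.88 and 0.54, and on the brightest probe set free of the suffixes _x_at and _s_at, which mark probes that can match further transcripts, by 0.39 from the mean (adjusted p = 0.521).

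The receptor gene and the urokinase gene differ in the letters before their start sites, which are shown because these genes gave the most and the least concordant readings of the activator system. The sequences are the 250 bases before the annotated start, from RefSeq (GRCh38.p14): PLAUR at chr19:43670170-43670419 on the minus strand, and PLAU at chr10:73910882-73911131 on the plus strand, the second of its 2 windows. Capitals mark matches to any of 5 motifs searched on both strands, TGACTCA (bound by AP-1), GCGTG (the core bound by the aryl hydrocarbon receptor), CAGAC (bound by SMADs), GGAATG (bound by TEADs) and CACGTG (the E-box).
PLAUR: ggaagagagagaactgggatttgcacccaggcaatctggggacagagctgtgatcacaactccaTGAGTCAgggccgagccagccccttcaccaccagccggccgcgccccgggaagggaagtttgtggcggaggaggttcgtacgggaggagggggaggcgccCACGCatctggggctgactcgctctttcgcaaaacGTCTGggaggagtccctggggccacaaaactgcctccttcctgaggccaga
PLAU: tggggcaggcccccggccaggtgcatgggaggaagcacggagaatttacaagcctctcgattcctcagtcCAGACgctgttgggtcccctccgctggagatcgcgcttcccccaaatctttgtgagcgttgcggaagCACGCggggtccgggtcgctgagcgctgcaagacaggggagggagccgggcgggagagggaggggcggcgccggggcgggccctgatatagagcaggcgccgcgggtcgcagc
The PLAUR window holds TGACTCA (here as TGAGTCA, on the other strand), GCGTG and CAGAC (the latter pair also on the other strand), 1 match each. This PLAU window holds CAGAC and GCGTG, 1 match each, and the other PLAU window holds none of the 5. No matches overlap in the windows printed. TGACTCA occurs in 4.2% of all 35116 windows of this length, GCGTG in 32.2% and CAGAC in 38%. In the 39 windows of the 27 genes that matched, TGACTCA was found in 5 (PLAUR, SERPINB8, SERPINB13 and 2 windows of SERPINB7), GCGTG in 10, CAGAC in 16, GGAATG in 4 (11.9% of all windows) and CACGTG in 1 (6.34% of all). A match describes letters only. SERPINB8 was higher in the treated array on 3 of 4 probe sets and SERPINB13 was below both untreated arrays on 2 of 3, and neither passed the test.

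PLAT, the activator best known from fibrin clots, was read by 7 probe sets, and on 6 of them the treated array lay above both untreated arrays. On the brightest, 11732321_a_at, the untreated signals were 9.5 and 9.40 and the treated signal was 9.69 (log2 difference 0.24 ± 0.22, adjusted p = 0.701). The largest difference was on 11754545_x_at, with 8.25 and 8.23 untreated and 8.90 treated (0.66, adjusted p = 0.162 fitted by probe set). The exception, 11753829_a_at, read 7.86 and 7.70 untreated and 7.56 treated. None of the 7 passed the test, and 5 of them lay above both when the arrays were centred on the tested genes. Over all probe sets past the filter 40.7% lay above both as deposited and 21.4% after centring. The 7 probe sets read 1 gene on the same arrays and are not independent of each other.

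**Figure D1:**
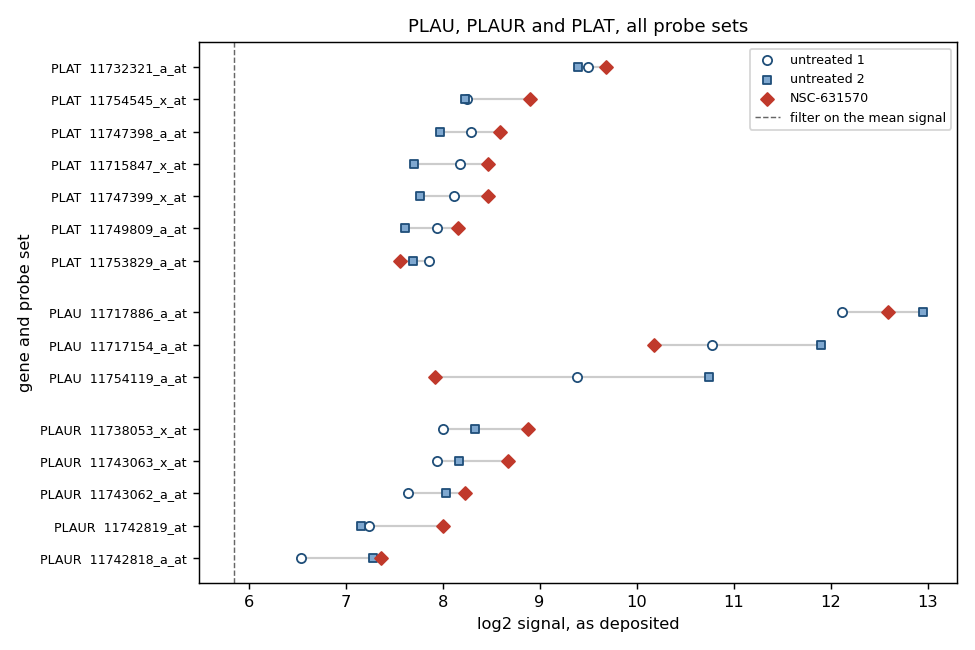
Log2 signal (x axis) of each probe set (rows) of PLAT, PLAU and PLAUR in untreated 1 (open circles), untreated 2 (blue squares) and the array treated with NSC-631570 (red diamonds), with the filter value of 5.85 dashed. The treated array lies to the right of both untreated arrays on all 5 PLAUR and 6 of 7 PLAT probe sets, and to the left on 2 of 3 PLAU probe sets.

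Of the inhibitors that act on plasminogen activators or plasmin, SERPINE2 (protease nexin-1, an inhibitor of thrombin and urokinase) varied most between the untreated arrays. On its brightest probe set, 11758598_s_at, it had 9.12 in untreated 1, 10.40 in untreated 2 and 10.00 in the treated array. The treated value lay between the untreated ones, which were 2.43-fold apart (log2 difference 0.24 ± 0.45, adjusted p = 0.879). The 4 probe sets past the filter all showed this order, with untreated 2 higher than untreated 1 by 2.43- to 2.71-fold, where 1.38% of all probe sets had untreated arrays at least 2-fold apart. From untreated 1 the difference was 0.89 and from untreated 2 it was −0.40. SERPINE3, a little studied relative, had signals from 3.54 to 3.73 and was not tested.

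SERPINF1, a secreted factor that inhibits no protease and is known for restraining blood vessel growth, stood farthest from the nearer untreated array among the tested genes of the set. Its brightest probe set, 11757026_x_at, read 6.58 and 6.64 untreated and 7.45 treated. The log2 difference was 0.84 ± 0.21 (1.79-fold, adjusted p = 0.156), and 0.81 remained above the higher untreated array. The treated array lay above both untreated arrays on all 5 SERPINF1 probe sets, of which 11716014_a_at missed the filter. Of the 4024 genes with at least 3 probe sets past the filter, 11.8% were above both on every one. The SERPINF1 differences ran from 0.23 to 0.99 as deposited and from 0.03 to 0.79 after centring on the tested genes. The largest difference, on 11757025_s_at, had an adjusted p = 0.063 in the fit by probe set. Untreated signals were low, and 11756312_a_at passed the filter only through its treated value of 6.39, with 5.81 and 5.73 untreated. No detection call was made, so the untreated signals may be background. SERPINF2, the neighbouring gene on chromosome 17 and the main inhibitor of plasmin in blood (antiplasmin), had 6.32 and 5.94 untreated and 6.37 treated, a difference of 0.24 ± 0.24 (adjusted p = 0.747) that exceeded untreated 1 by 0.05 only.

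SERPINI1 (neuroserpin, an inhibitor of tissue plasminogen activator) read 6.32 and 6.54 untreated and 6.69 treated (0.26 ± 0.22, adjusted p = 0.682). The treated array was the highest, by 0.15, and untreated 2 exceeded untreated 1 by 0.22. SERPINI2 stood at 4.12 and 4.22 untreated and 4.22 treated and was not tested.

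Among the intracellular serpins of clade B, 7 of 11 genes were tested. The treated array lay above both untreated arrays for 4 of them, between for 3 and below both for none on the brightest probe sets, with a median difference of 0.18. The 57.1% above both lies near the 51.6% of all tested genes, of which 22.5% lay below both. Over the 14 clade B probe sets past the filter 6 lay above both (42.9%) and 3 below both (21.4%). Over all probe sets past the filter the shares were 40.7% and 34.5%. After centring on the tested genes SERPINB1 and SERPINB8 still lay above both on some probe set, and SERPINB5 and SERPINB9 on none. SERPINB1 and SERPINB9 lie on chromosome 6 and the other 9 genes in a cluster on chromosome 18, in the order SERPINB5, SERPINB12, SERPINB13, SERPINB4, SERPINB3, SERPINB11, SERPINB7, SERPINB10 and SERPINB8 among the genes measured here. The 5 tested genes of the cluster differed by −0.13 to 0.33 on their brightest probe sets.

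SERPINB1 (1 probe set) read 11.07 and 11.65 untreated and 12.10 treated. The treated array was the highest, and the log2 difference was 0.74 ± 0.28 (1.67-fold, adjusted p = 0.282). Its distance of 0.45 above untreated 2 was smaller than the 0.58 between the untreated arrays. SERPINB9, an inhibitor of granzyme B, read 9.30 and 9.64 untreated and 9.65 treated on its brightest probe set (0.18 ± 0.24, adjusted p = 0.819). Its probe set 11729262_a_at differed the other way, with 5.36 and 5.78 untreated and 3.85 treated, 3.30-fold lower than the untreated mean. That probe set did not pass the filter and was not tested, and with the mean of all its probe sets SERPINB9 differed by −0.39 (limma adjusted p = 0.438).

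SERPINB5 (maspin), a marker of squamous and other epithelia, read 9.57 and 9.94 untreated and 10.09 treated on its brightest probe set (0.33 ± 0.24, adjusted p = 0.608). On the next, 11749983_a_at, it read 8.94 and 9.15 untreated and 8.90 treated. The probe sets thus placed the treated array above and below both untreated arrays in turn. SERPINB8, which inhibits furin, read 7.69 and 7.64 untreated and 7.99 treated on the brightest (0.33 ± 0.21, adjusted p = 0.561). Its 11728413_at, nearer the filter, read 6.08 and 6.03 untreated and 6.96 treated, a 1.88-fold difference (adjusted p = 0.075 fitted by probe set). The other 2 differed by 0.23 and −0.04, so the larger difference rests on 1 of 4 probe sets.

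SERPINB13 (headpin), an inhibitor of cysteine cathepsins in stratified epithelium, was lower than the untreated mean on all 3 probe sets. On the brightest it read 8.93 and 9.58 untreated and 9.13 treated, between the untreated arrays (−0.13 ± 0.29, adjusted p = 0.909). On 11735726_a_at it read 7.41 and 7.70 untreated and 6.92 treated, below both, with a difference of −0.64 (adjusted p = 0.209 fitted by probe set). Against untreated 1 alone the brightest probe set differed by 0.20. SERPINB7, an epidermal serpin, read 6.27 and 6.52 untreated and 6.49 treated on its tested probe set, a difference of 0.10 that turned to −0.10 after centring on the tested genes.

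SERPINB3 and SERPINB4 encode the squamous cell carcinoma antigens, a pair of tandem copies. They are shown by the 250 bases before their starts (RefSeq, GRCh38.p14, minus strand), SERPINB3 at chr18:63661894-63662143 and SERPINB4 at chr18:63644257-63644506, to show how alike the copies are before their starts. Capitals mark the bases that differ.
SERPINB3: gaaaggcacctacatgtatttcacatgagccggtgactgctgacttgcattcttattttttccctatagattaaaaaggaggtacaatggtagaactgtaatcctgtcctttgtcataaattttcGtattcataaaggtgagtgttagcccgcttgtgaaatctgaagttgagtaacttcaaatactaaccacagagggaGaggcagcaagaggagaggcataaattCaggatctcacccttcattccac
SERPINB4: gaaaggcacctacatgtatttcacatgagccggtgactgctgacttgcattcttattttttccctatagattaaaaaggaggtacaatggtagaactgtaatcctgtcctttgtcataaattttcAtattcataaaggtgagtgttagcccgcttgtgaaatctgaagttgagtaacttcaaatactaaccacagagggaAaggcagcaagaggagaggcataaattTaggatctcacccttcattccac
The windows differ at 3 of 250 bases and are 98.8% identical without gaps. These bases lie outside the transcripts, and transcript and probe sequences were not compared. Readings of SERPINB3 and SERPINB4 are uncertain, since probes of one may bind RNA of the other, and the platform annotation itself gives 5 probe sets to both genes. The brightest SERPINB3 probe set read 6.24 and 5.93 untreated and 6.01 treated (−0.08 ± 0.23, adjusted p = 0.930). Its other 2 and the only one naming SERPINB4 alone (4.34 and 4.82 untreated, 4.10 treated) did not pass the filter, and all 3 placed the treated array below both untreated arrays. Those 5 shared probe sets fall outside the rule and differed by −0.33 to 0.31, with 2 below both untreated arrays, 1 above and 2 between. SERPINB10, SERPINB11 and SERPINB12 had signals of at most 5.38 and were not tested.

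**Figure D2:**
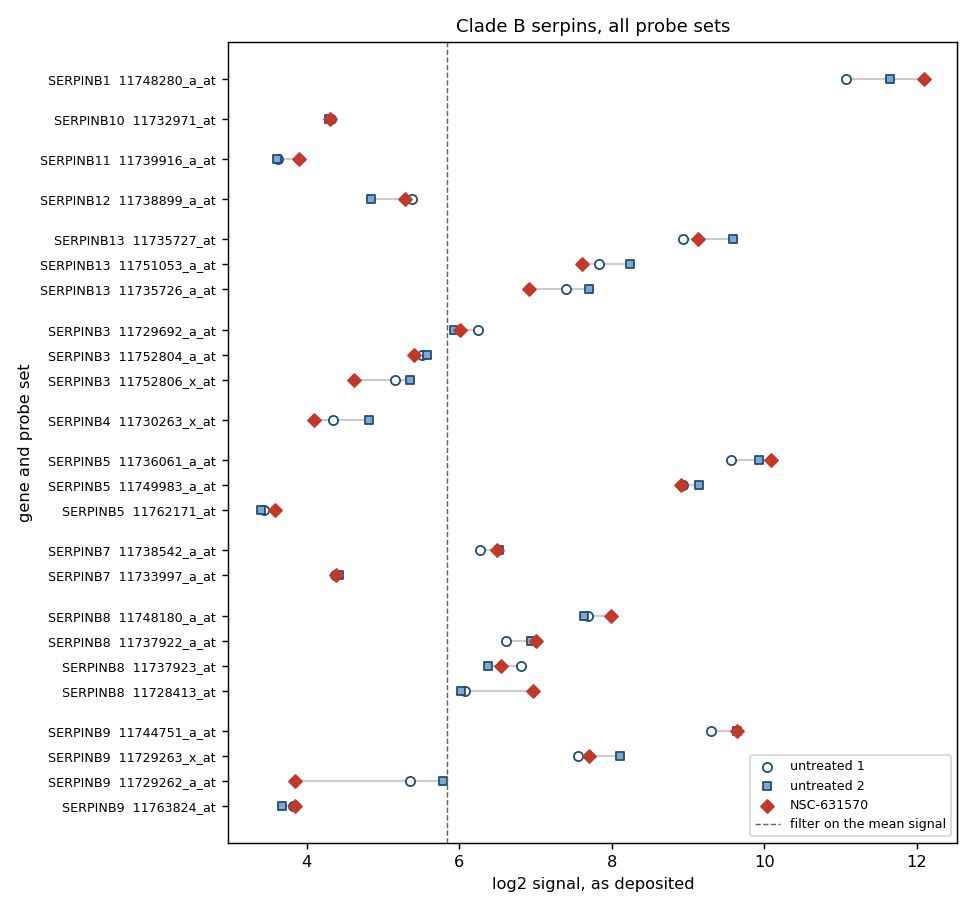
Log2 signal (x axis) of each clade B probe set (rows) in untreated 1 (open circles), untreated 2 (blue squares) and the array treated with NSC-631570 (red diamonds), with the filter value of 5.85 dashed. The treated array is the highest for SERPINB1 and on 3 of 4 SERPINB8 probe sets, and the widest gap to its left is that of SERPINB9 11729262_a_at, at 3.85.

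In clade A, 3 of 10 genes were tested. SERPINA1 (alpha-1-antitrypsin, the blood's main inhibitor of neutrophil elastase) read 7.23 in untreated 1, 8.27 in untreated 2 and 8.58 in the treated array on its brightest probe set. The treated array was the highest there, 0.31 above untreated 2, but lay between the untreated arrays on the next 2 probe sets. On 11721457_a_at, which did not pass the filter, it was below both, with 4.51 and 4.65 untreated and 4.03 treated. The log2 difference on the brightest was 0.83 ± 0.38 (adjusted p = 0.382), smaller than the 1.04 between the untreated arrays. It became 0.26 with the mean of all probe sets (limma adjusted p = 0.805) and 0.22 on the brightest probe set free of the suffixes _x_at and _s_at (limma adjusted p = 0.873). SERPINA3 (antichymotrypsin, an acute-phase protein that inhibits cathepsin G) was the only tested gene of the set below both untreated arrays, with 7.77 and 7.27 untreated and 7.15 treated (−0.37 ± 0.26, adjusted p = 0.606). Its other probe set gave the same order, 7.14, 6.83 and 6.58. SERPINA4 (kallistatin, an inhibitor of tissue kallikrein) read 6.09 and 5.70 untreated and 6.02 treated, close to the filter, and differed by 0.13.

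The other 7 clade A genes were not tested. They include SERPINA5 (protein C inhibitor), the hormone carriers SERPINA6 and SERPINA7, and SERPINA10, whose 2 probe sets read 0.28 and 0.35 above the untreated mean at signals up to 4.31. The remaining ones, SERPINA9, SERPINA11 and SERPINA12 (vaspin), had signals from 4.54 to 5.22. Further secreted serpins read as low: SERPINC1 (antithrombin) from 4.21 to 4.58 and SERPING1 (the complement C1 inhibitor) from 3.86 to 4.43 over its 2 probe sets. SERPIND1 (heparin cofactor II) passed the filter on 1 probe set, with 7.15 and 6.90 untreated and 7.02 treated, and differed by −0.0051 (adjusted p = 0.997). Over the 29 probe sets of the set that missed the filter, the treated array was above both untreated arrays on 10, below both on 7 and between on 12. Shares over all probe sets that missed the filter were not counted, and without a detection call these are positions near background.

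SERPINH1, an endoplasmic reticulum chaperone of procollagen, was read in opposite directions. Such readings, above both untreated arrays on some probe sets and below both on others, are common here. They were found for 41.7% of the 4024 genes with at least 3 probe sets past the filter. The 2 brightest probe sets gave nearly equal values, 10.80 and 10.89 untreated and 11.31 treated on 11746321_s_at, a difference of 0.46 ± 0.22 (1.38-fold, adjusted p = 0.383). The treated array was the highest on both. On 11746320_x_at it was the lowest, with 9.98 and 10.39 untreated and 9.43 treated (−0.76, adjusted p = 0.167 fitted by probe set). These orders held under all 4 scalings tried (as deposited, quantile, and 2 common medians).

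**Figure D3:**
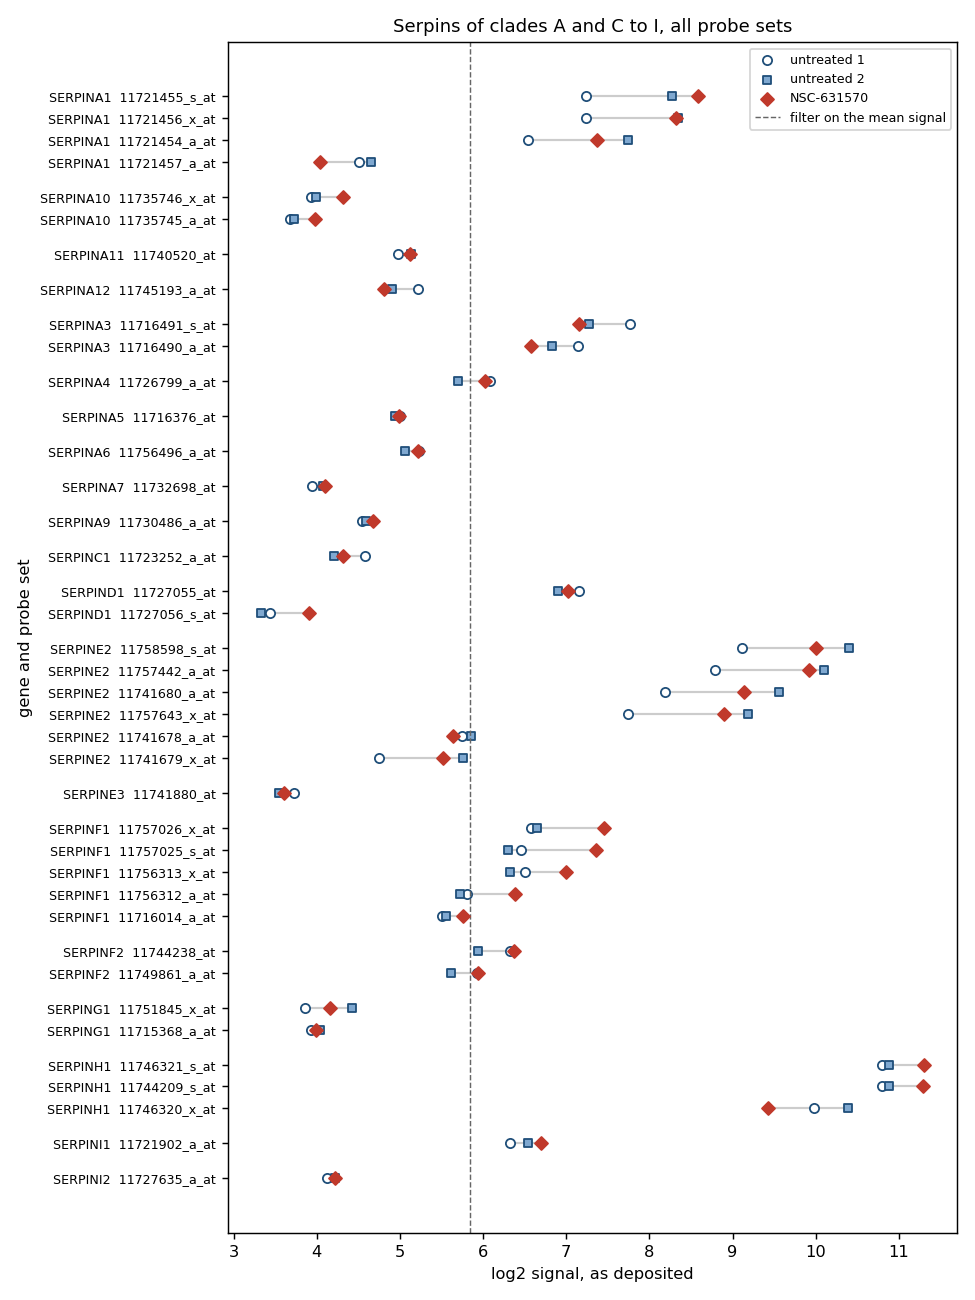
Log2 signal (x axis) of each probe set (rows) of serpins of clades A and C to I in untreated 1 (open circles), untreated 2 (blue squares) and the array treated with NSC-631570 (red diamonds), with the filter value of 5.85 dashed. All 5 SERPINF1 probe sets have the treated array on the right, while SERPINE2 has untreated 1 far to the left, at 9.12 against 10.40 in untreated 2 on its brightest probe set.

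The untreated arrays differed from each other in these genes. Untreated 2 was higher than untreated 1 for 12 of the 19 tested genes (63.2%), where that held for 47% of all tested genes, and the median size of the gap was 0.34, beside 0.18 over all. The gap was over 2-fold for SERPINE2 and SERPINA1, and 1.32% of tested genes had one of at least 2-fold. For PLAU, SERPINB13, SERPINB7 and SERPINE2 the treated array was above untreated 1 and below untreated 2. For SERPINA4, SERPINB3 and SERPIND1 it was below untreated 1 and above untreated 2. In these 7 of the 19 genes the choice of the untreated array sets the sign.

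**Figure D4:**
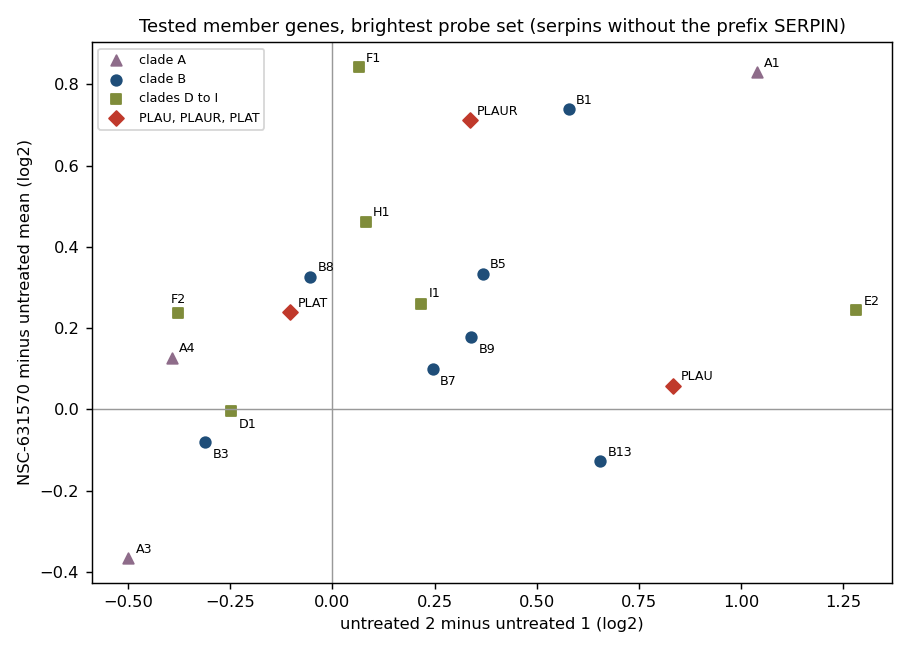
Difference between the untreated arrays (x axis, untreated 2 minus untreated 1, log2) and between the treated array and the untreated mean (y axis, log2) for the brightest probe set of each of the 19 tested genes, with serpins named without their prefix. SERPINF1, at 0.84 on the y axis, has untreated arrays within 0.07 of each other, while SERPINA1, at 0.83, has them 1.04 apart.

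Genes that work with the activators were measured from a list of 20 plasminogen receptors, activators and partners, of which 13 were tested. None passed over all genes by limma, 4 were higher at an unadjusted p under 0.05 (12.2% of all tested genes), and 10 lay above both untreated arrays and 2 below both (51.6% and 22.5% of all tested genes). The median difference was 0.20. Over the 35 probe sets of these genes past the filter, 20 lay above both (57.1%) and 8 below both (22.9%). Over all probe sets past the filter the shares were 40.7% and 34.5%. The largest differences were those of F12 (coagulation factor XII, 8.03 and 7.95 untreated and 9.0 treated, 1.02 ± 0.22, adjusted p = 0.127), ITGA3 (an integrin subunit, 0.85, its 2 other probe sets having a median of −0.53), MRC2 (a collagen receptor that associates with PLAUR, 0.73, its 2 other probe sets having a median of 0.10) and the plasminogen receptor gene PLGRKT (0.63). On the brightest probe sets ENO1 (−0.26) and LRP1 (−0.24), which encode a plasminogen-binding surface form of enolase and the receptor that clears protease and serpin complexes, were below both untreated arrays. The other probe set of ENO1 differed by −0.25 and that of LRP1 by 0.60, the opposite way. Fitted by probe set, 1 of 35 passed, close to the 2.93% of all probe sets, a probe set of the membrane protease gene ST14 (−1.36 ± 0.22, adjusted p = 0.024), while the brightest ST14 probe set differed by 0.15.

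Of 24 proteases known as serpin targets, 14 were tested and none passed by limma, with 3 higher at an unadjusted p under 0.05 (12.2% of all tested genes) and a median difference of 0.06. The cysteine cathepsin genes CTSL (9.21 and 10.05 untreated, 10.62 treated, 0.99 ± 0.34, adjusted p = 0.244) and CTSS (0.76), the kallikrein gene KLK8 (0.70) and the complement protease gene C1S (0.65) had the largest differences, and 7 of the 14 lay above both untreated arrays and 5 below both. Over all tested genes 51.6% lay above both and 22.5% below both, so the 50% above is near the background. Of their 28 probe sets past the filter 17 lay above both (60.7%) and 7 below both (25%). Over all probe sets past the filter the shares were 40.7% and 34.5%.

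Of 15 genes for procollagens and the enzymes that modify them, which work with SERPINH1, 11 were tested and none passed by limma, with 2 higher at an unadjusted p under 0.05 (12.2% of all tested genes), a median difference of 0.27, 8 above both untreated arrays and 1 below both (51.6% and 22.5% of all tested genes). Over all 29 of their probe sets past the filter the median was 0.06, 14 lay above both and 11 below both (40.7% and 34.5% of all probe sets), and 2 were higher and 6 lower at an unadjusted p under 0.05. COL6A1 differed most on its brightest probe set (6.97 and 6.89 untreated, 8.06 treated, 1.13 ± 0.22, adjusted p = 0.104) and passed with the arrays at a common median over all probe sets (1.18, limma adjusted p = 0.041). Its 2 other probe sets had a median difference of 0.15, so the larger value rests on 1 probe set. PLOD3 (0.58), COL4A1 (0.43) and COL4A2 (0.34) followed on their brightest probe sets. The 4 other probe sets of PLOD3 had a median of −0.57 and the 2 others of COL4A2 one of −0.13, opposite in sign, while the other one of COL4A1 differed by 0.60. Fitted by probe set, 3 of 29 passed, where 2.93% of all probe sets did, that of COL6A1 and 2 lower ones of P4HB (−1.49 and −1.39), whose brightest probe set differed by 0.20. Without the suffixes _x_at and _s_at the brightest P4HB probe set was the lower one and passed among genes (limma adjusted p = 0.026). P4HB encodes a prolyl hydroxylase subunit. Like SERPINH1 and PLAT, it had probe sets above both untreated arrays and others below both. That held for 41.7% of the 4024 genes with at least 3 probe sets past the filter.

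The line was checked against markers. The 5 of 8 squamous markers matched to a probe set of 1 gene all passed the filter, with medians of 12.46 and 12.51 untreated and 12.40 treated. Of the 6 fibroblast markers 2 passed, of which PDGFRB reached 6.21, the highest value of any, and COL1A2, COL3A1, DCN and LUM did not. Of the 5 endothelial markers 3 passed, with CDH5 the highest at 7.79, and TEK and CLDN5 did not, and the medians were 6.6 and 6.37 untreated and 6.57 treated. Of the 4 measured leukocyte markers 2 passed, with CD14 the highest at 7.42, and PTPRC and ITGAM did not, with medians of 5.33 and 5.03 untreated and 5.31 treated. Of the 5 hepatocyte markers, from a main source of the blood serpins, 2 passed, with TTR the highest at 6.43, and ALB, FGB and HP did not, with medians of 4.79 and 5.02 untreated and 5.11 treated. Signals past the filter are no detection call, and the part of other cell types in the results was not tested.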

How the data were processed

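Per the labels' protocols, total RNA (RNeasy) was amplified from 100 ng and biotin-labelled (IVT Express). The authors deposited log2 signals per probe set and array, made with Affymetrix Expression Console, per the submitters' processing notes. Algorithm, version and normalization were not given in the sources used here, and the log2 scale was read from the values, whose array medians are 6.62, 6.57 and 6.55, and nothing was rescaled.

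Array controls were left out, and 44988 of 49395 probe sets named 1 gene. All 34 symbols matched the RefSeq gene table. The brightest probe set stood for a gene, and means below the 40th percentile (5.85) were left out. Limma (version 3.58.1, R version 4.3.3) was fitted over 11932 genes, and again over 27249 probe sets, with Benjamini-Hochberg adjustment at 0.05. The spread has 1 residual degree of freedom, moderated with 6.9 prior degrees of freedom around an SD of 0.187, and the treated condition is taken to vary as the untreated one does. The number of arrays limits the precision. The fit was tested on simulated data, where it recovered 17 of 50 changes of 2-fold and 49 of 50 of 4-fold. The simulation also held 50 changes each of 8- and 16-fold, whereas limma called only 8 of the 11932 genes in these data. More passing genes ease the adjusted threshold, so recovery in these data may be lower. Changes of 2-fold were mostly missed in the simulation, and a gene that did not pass is not shown to be unchanged.

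The genes and lists were chosen with earlier results of these data known. Every gene of the set could be named, and of each pathway list the 4 largest differences and those that passed. Other genes named there (ENO1, LRP1, ST14, P4HB) were chosen after their values were seen.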

Additional observations from a re-analysis of the deposited data

How the results depend on the processing

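No gene of the set passed the threshold under any alternative tried (quantile normalisation, common medians, no filter or the 60th percentile, mean of probe sets, a variance trend, or probe sets without the suffixes _x_at and _s_at, the last chosen after the values were seen). No probe set of these genes passed under 2 scalings added then, quantile normalisation and a common median over all probe sets. The fit by probe set was not repeated after centring on the tested genes. Centred on the tested genes, 6 genes lay above both untreated arrays and 4 below both, with no matching share over all tested genes counted. The median was 0.043, and PLAU (−0.14), SERPINA4 (−0.069), SERPINB7 (−0.097) and SERPINB9 (−0.019) turned negative, since the median of all tested genes moved from 0.12 to −0.08. SERPIND1 turned to 0.022 after quantile normalisation and 0.038 with all probe sets at a common median. Genes below both numbered 3 without a filter, where 34 genes were counted, and 4 with the mean of probe sets, where PLAU (−1.08) and SERPINB9 (−0.39) reversed. SERPINF1 left the count of genes at least 1.5-fold above both, then 0, with the 60th percentile and without the suffixes. Of the collagen genes 1 passed with all probe sets at a common median (COL6A1) and another 1 without the suffixes (P4HB, lower). The cause was not tested.

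Leaving out an untreated array leaves 1 against 1 and no test. The counts that follow have no share over all tested genes beside them. Against the mean of both untreated arrays, 15 of the 19 genes were higher, as were 7873 of all 11932. Without untreated replicate 1 and without untreated replicate 2 in turn, genes above the other array numbered 14 and 15, and those below 5 and 4. Those 1.5-fold above numbered 1 and 5, those 1.5-fold below 0 and 1, and the medians were 0.15 and 0.35. In the same order the difference was −0.36 and 0.48 for PLAU, 0.323 and −0.069 for SERPINA4, −0.455 and 0.20 for SERPINB13, 0.075 and −0.235 for SERPINB3, −0.023 and 0.222 for SERPINB7, 0.118 and −0.129 for SERPIND1, and −0.40 and 0.885 for SERPINE2. No paired analysis was possible because the treated group has 1 array. A second pseudocount was not needed, since the values are log2.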
